A study of Homo sapiens with 8 samples.

Results

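The NF-kB pathway was followed through 34 listed genes: the Rel transcription factor subunits, the IkB inhibitors, the IKK complex and the kinases above it, TRAF adaptors, ubiquitin editors, and target genes. Members were the listed genes with a probe of that symbol, current or older, whose signal was detected above background (detection p under 0.05) in both duplicates of 1 or more lines. All 34 genes had a probe on the array, and 28 of them met the rule, out of 10681 genes that met it in all. By role the detected genes were 5 of 5 Rel subunits, 3 of 5 IkB family genes, 9 of 9 IKK and upstream kinases, 3 of 3 TRAF adaptors, 6 of 6 ubiquitin editors and LUBAC subunits, and 2 of 6 targets.

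NF-kB dimers of Rel proteins are held in the cytoplasm by IkB proteins until the IKK complex phosphorylates the inhibitor, which is then degraded so that the dimer enters the nucleus. Several of the genes it switches on, among them NFKBIA and TNFAIP3, encode proteins that shut the pathway off again, so that their transcripts are widely read as a record of pathway output. In T cells the pathway is driven by the antigen receptor and by tumour necrosis factor (TNF) family receptors. The death receptors for TRAIL, a TNF family ligand that triggers apoptosis, can also activate it.

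RNA came from 4 lines of Jurkat, a human T cell leukaemia line, with 2 biological duplicates and so 2 Illumina HumanRef-8 BeadChip arrays per line. The lines were TR1, TR2 and TR3, each a TRAIL-resistant subclone obtained under 1000 ng/mL TRAIL during 12 weeks, and WT, the untreated parental cells. No treatment preceded RNA isolation. No subclone grown without TRAIL was profiled, so resistance, subcloning and time in culture cannot be told apart, and each clone is 1 line. In such bulk RNA, fewer cells that express a gene and less RNA per cell cannot be told apart.

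The arrays detected between 12408 and 13437 of 22184 probes (55.9% to 60.6%), with median raw intensities of 68.08 to 82.98. All 13 listed T cell markers were detected on all 8 arrays. Of 6 B cell markers with a probe, CD79A, CD79B and BLK were detected on all arrays and MS4A1, PAX5 and CD22 on none. Of 5 myeloid markers with a probe, 1 (CD68) was detected on all arrays and 3 on none. Of 5 fibroblast and epithelial markers, 0 were detected on all arrays and 2 on none, while COL1A1 and KRT18 met the detection rule. Levels below are log2 normalised intensities, and a change of 1 on this scale is a doubling. A gene was called at a limma adjusted p under 0.05, with the adjustment over all tested probes. The 3 clones were compared with the same WT arrays, so those comparisons share their controls.

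Of the 28 NF-kB genes, NFKBIA was the only one called between lines without pairing of replicates. It was called higher in TR1 than in WT, TR2 and TR3. That is 1 of 28 genes in TR1 against WT, where 2.36% of all tested genes were called. None of the 28 was called in TR2 against WT (0.646% of all genes), in TR3 against WT (0.318%) or for the mean of the clones against WT (0.421%). At an unadjusted p under 0.05, limma counted 4 of the 28 in TR1, 5 for TR2, 2 for TR3 and 4 for the mean of the clones (14.3%, 17.9%, 7.14% and 14.3%). Over all tested genes the shares at that p were 16.2%, 11.5%, 9.81% and 11.1% in the same order. The median change of the 28 genes was -0.03 in TR1, -0.02 for TR2 and -0.02 for TR3. Over all tested genes TR1 had a median change of 0.01, TR2 of -0.0023 and TR3 of 0.0041. The 95% interval of each member's change lay within 0.92 of 0 in TR1, 1.09 in TR2 and 0.93 in TR3, with the widest for IER3.

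**Figure D1:**
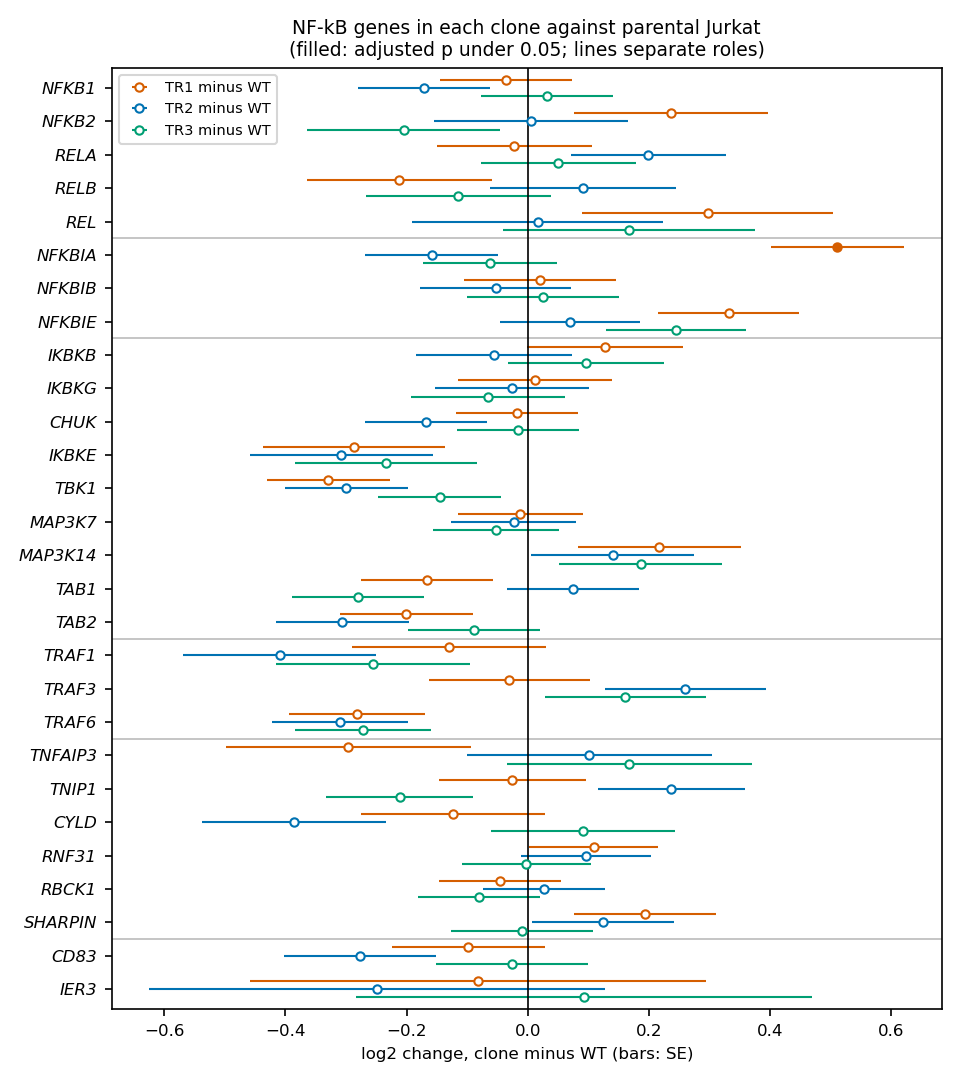
Log2 change of each detected NF-kB gene in TR1, TR2 and TR3 against WT (x axis, log2 scale; bars are the standard error of the fit, 2 arrays per line), with genes down the page in order of role. The filled point is NFKBIA in TR1 at 0.51, the called change in this plot, and the other points are open.

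The Rel subunits are the DNA-binding proteins of the pathway. NFKB1, which encodes p105 and its processed form p50, had log2 levels of 11.57 and 11.48 in TR1, 11.44 and 11.33 in TR2, 11.59 and 11.59 in TR3, and 11.47 and 11.64 in WT. Its lowest line was TR2, whose arrays lay below those of WT by 0.17 on average (adjusted p = 0.59, limma). The change was -0.04 in TR1 and 0.03 in TR3.

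RELA encodes p65, the main transactivating partner of p50. Its levels were 8.25 and 7.96 in TR1, 8.23 and 8.42 in TR2, 8.12 and 8.24 in TR3, and 8.12 and 8.14 in WT. Both TR2 arrays lay above WT, with a change of 0.20 (adjusted p = 0.59, limma), and the changes in TR1 and TR3 were -0.02 and 0.05.

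RELB encodes the partner of p52 in the non-canonical pathway, and REL encodes c-Rel, which serves lymphocyte activation. RELB had 5.42 and 5.51 in TR1, 5.76 and 5.77 in TR2, 5.54 and 5.58 in TR3, and 5.42 and 5.93 in WT. REL had 5.70 and 5.87 in TR1, 5.32 and 5.69 in TR2, 5.53 and 5.79 in TR3, and 5.16 and 5.82 in WT. For both genes the 2 WT arrays differed by more than any 2 line means did: the largest gap between duplicates was 0.51 for RELB and 0.65 for REL, against a range of line means of 0.30 for each. The smallest adjusted p against WT was 0.54 for RELB and 0.52 for REL (limma).

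NFKB2 encodes p100, the precursor of p52 and an inhibitor of RELB dimers. Its levels were 7.67 and 7.53 in TR1, 7.17 and 7.57 in TR2, 7.03 and 7.28 in TR3, and 7.23 and 7.50 in WT. TR1 was the highest line and TR3 the lowest, and their arrays did not overlap. TR3 minus TR1 was -0.44 (SE 0.16, adjusted p = 0.23, limma). With the replicate number as a block, on the authors' processed values, it was -0.35 (SE 0.096, adjusted p = 0.030) and NFKB2 was called. With the array letter as a block on the raw values it was -0.44 (adjusted p = 0.094) and was not called. In the values the letters pair the same arrays as the numbers, so these blocked fits differ in the values used and not in the pairing. Against WT the change of NFKB2 was 0.24 in TR1, 0.01 in TR2 and -0.20 in TR3, none of them called.

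Among the inhibitors, NFKBIA encodes IkBα, which binds p65 and p50 dimers and is itself a direct NF-kB target. Its log2 levels were 10.47 and 10.41 in TR1, 9.84 and 9.70 in TR2, 9.86 and 9.87 in TR3, and 9.84 and 10.02 in WT. Both TR1 arrays lay above the other 6 arrays, and the TR2 and TR3 arrays lay below the higher WT array. TR1 minus WT was 0.51 (SE 0.11, 95% interval 0.26 to 0.76, 1.43-fold, adjusted p = 0.048, limma). By size of change NFKBIA ranked 138 among the 5597 of 10681 genes higher in TR1. With the replicate block TR1 minus WT was 0.49 (adjusted p = 0.0012, limma). TR2 minus WT was -0.16 (adjusted p = 0.62) and TR3 minus WT was -0.06 (adjusted p = 0.90). Leaving out any 1 of the 8 arrays ended the call against WT, with adjusted p between 0.063 and 0.23 and changes of 0.42 to 0.60.

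Between clones NFKBIA differed in the same direction. TR2 minus TR1 was -0.67 (SE 0.11, 1.59-fold lower in TR2, adjusted p = 0.0073, limma), and TR3 minus TR1 was -0.57 (SE 0.11, 1.49-fold lower in TR3, adjusted p = 0.036). TR3 minus TR2 was 0.10 (adjusted p = 0.84), so these clones were not separated. Of the 28 genes, 1 was called in TR2 against TR1, where 4.86% of all genes were called, and 1 in TR3 against TR1 (1.61%). The moderated F test among the 3 clones called 1 of 28, again NFKBIA (adjusted p = 0.014), against 3.89% of all genes. In TR3 against TR2 the count was 0 of 28 (0.843% of all genes), with 3 at an unadjusted p under 0.05 (10.7%, against 10.5% of all genes). The TR2 against TR1 call was lost without TR1 array A (adjusted p = 0.062) or TR2 array B (adjusted p = 0.079). The TR3 against TR1 call was lost without either array of TR1 or of TR3 (adjusted p = 0.13 to 0.24), and the F test call without either TR1 array or without TR2 array B (adjusted p = 0.055 to 0.13).

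NFKBIE encodes IkBε, another inhibitor that retains Rel dimers. It averaged 7.90 ± 0.14 in TR1, 7.64 ± 0.0003 in TR2, 7.82 ± 0.09 in TR3 and 7.57 ± 0.12 in WT (SD, n = 2 arrays). Its changes against WT were 0.33 in TR1, 0.07 in TR2 and 0.24 in TR3, with adjusted p of 0.20, 0.85 and 0.52 (limma). NFKBIB, which encodes IkBβ, averaged 8.79 in TR1, 8.71 in TR2, 8.79 in TR3 and 8.77 in WT, a range of 0.08 that was smaller than its largest gap between duplicates of 0.25. A lower NFKBIB probe gave changes of 0.26 in TR1, 0.20 in TR2 and 0.35 in TR3, none of them called.

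NFKBIZ and BCL3, which encode nuclear IkB proteins that modify transcription at NF-kB sites, did not meet the detection rule. For NFKBIZ 1 probe was detected on no array, with a raw intensity of 50.3 to 63.4, and the other on 1 TR2 and 1 WT array. The BCL3 probe was detected on 1 TR1 array. Its raw intensity was 56.1 to 69.3 over the 8 arrays.

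The promoters of 3 feedback genes that separated lines or clones under at least 1 of the fits are shown. They were chosen because NF-kB is known to act on its own inhibitors through promoter sequences of this kind. Only windows that hold a match are shown, so the presence of a match was set by that choice. The consensus also lay in promoters of NFKB2, called with the replicate block, and of members never called, such as NFKB1, REL, NFKBIB, CD83 and CYLD. A link between matches and changes was not tested. NFKBIA stands at chr14:35404700-35404999 on the minus strand, TNFAIP3 at chr6:137867009-137867308 on the plus strand and TNIP1 at chr5:151080985-151081284 on the minus strand (GRCh38.p14, RefSeq). Each window runs 5′ to 3′ from 250 bases before to 50 bases after the annotated start, and capitals mark a match to the NF-kB consensus or to GGAAANTCC on either strand.
NFKBIA: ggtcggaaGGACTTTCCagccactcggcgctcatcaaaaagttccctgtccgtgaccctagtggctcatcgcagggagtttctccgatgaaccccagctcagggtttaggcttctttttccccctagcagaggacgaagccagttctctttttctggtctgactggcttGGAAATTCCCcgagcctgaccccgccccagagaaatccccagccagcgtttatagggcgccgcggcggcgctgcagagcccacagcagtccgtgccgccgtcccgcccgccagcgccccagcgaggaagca
TNFAIP3: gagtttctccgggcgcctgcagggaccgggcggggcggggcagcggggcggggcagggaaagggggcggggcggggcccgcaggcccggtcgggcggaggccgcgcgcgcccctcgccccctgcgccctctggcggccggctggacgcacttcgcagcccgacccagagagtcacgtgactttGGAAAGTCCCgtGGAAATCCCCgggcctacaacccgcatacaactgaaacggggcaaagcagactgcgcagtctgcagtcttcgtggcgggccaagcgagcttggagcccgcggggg
TNIP1: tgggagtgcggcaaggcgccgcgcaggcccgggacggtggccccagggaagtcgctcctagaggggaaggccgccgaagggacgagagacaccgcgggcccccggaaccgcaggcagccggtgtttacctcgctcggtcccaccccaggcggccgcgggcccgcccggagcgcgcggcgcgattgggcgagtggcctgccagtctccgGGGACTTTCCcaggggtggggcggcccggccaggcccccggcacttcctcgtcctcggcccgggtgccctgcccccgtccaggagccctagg

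In NFKBIA the match GGAAATTCCC began at position -81, counted from the start, and GGACTTTCC, which matches GGAAANTCC on the opposite strand, at position -242. TNFAIP3 held GGAAAGTCCC and GGAAATCCCC, which began at positions -67 and -55, and TNIP1 held GGGACTTTCC, which began at position -42. Promoters were found in the RefSeq table for 28 of the 34 listed genes. RELB, NFKBIE, IKBKB, SHARPIN, CD40 and IER3 had no entry. These 28 are not the 28 detected genes, since NFKBIZ and BCL3, for example, are among them. The consensus lay in a promoter of 13 of these 28 (46.4%), against 3619 of 27305 genes in the table (13.25%). Genes can have several promoters. Per promoter it lay in 16 of 45 (35.6%), against 3956 of 35116 (11.27%). GGAAANTCC lay in 11 of these 28 (39.3%), against 549 of 27305 (2.01%), and in 11 of 45 promoters (24.4%), against 577 of 35116 (1.64%). The motifs overlap, since a sequence such as the NFKBIA match fits both. The list was drawn up from genes known for this pathway, and a match is a description of the letters in the window.

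**Figure D2:**
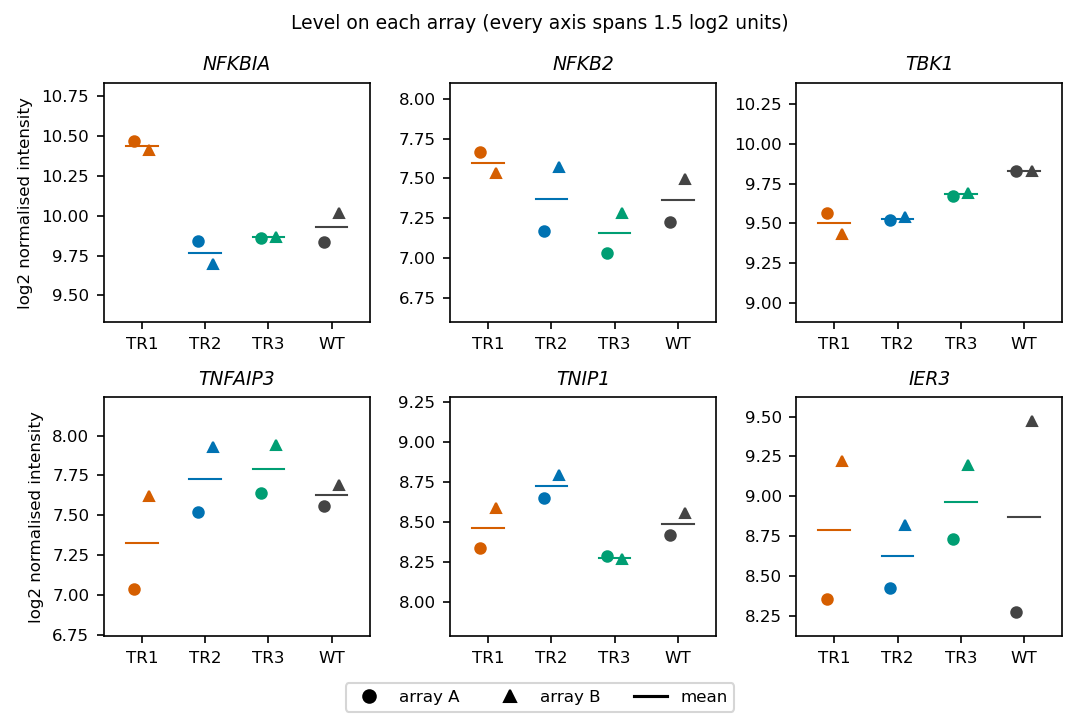
Log2 normalised intensity (y axis, each panel spanning 1.5 log2 units) of NFKBIA, NFKB2, TBK1, TNFAIP3, TNIP1 and IER3 on each array of TR1, TR2, TR3 and WT. Circles are array A, triangles are array B and the line is the mean of 2; the TR1 arrays of NFKBIA lie at 10.47 and 10.41, above the other arrays, while the IER3 arrays of WT lie at 8.27 and 9.47.

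The IKK complex joins the kinases IKBKB and CHUK (IKKβ and IKKα) with the scaffold IKBKG (NEMO). IKBKB averaged 8.62 in TR1, 8.44 in TR2, 8.59 in TR3 and 8.50 in WT. CHUK averaged 10.20 in TR1, 10.05 in TR2, 10.20 in TR3 and 10.22 in WT. IKBKG averaged 10.16 in TR1, 10.12 in TR2, 10.08 in TR3 and 10.15 in WT. The range between lines was 0.08 to 0.18 for these 3 genes, and none was called in any comparison. The IKBKG probe may also read RNA of a near-identical pseudogene copy.

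The IKK-related kinases TBK1 and IKBKE act beside the complex, in interferon and alternative NF-kB signalling. TBK1 had 9.57 and 9.43 in TR1, 9.52 and 9.54 in TR2, 9.67 and 9.69 in TR3, and 9.83 and 9.83 in WT. All 6 clone arrays lay below both WT arrays, as they also did for TRAF6, TRAF1 and TAB2. The share of all genes with that pattern was not counted. For a single clone, 39.2% to 45% of all genes had arrays that did not overlap those of WT. The change was -0.33 in TR1 (SE 0.10, 95% interval -0.56 to -0.10, adjusted p = 0.14, limma), -0.30 in TR2 (adjusted p = 0.29) and -0.15 in TR3 (adjusted p = 0.67). With the replicate block TBK1 was called in TR1, at -0.31 (SE 0.083, adjusted p = 0.023), and not in TR2 (-0.29, adjusted p = 0.065). With the array letter block on the raw values TBK1 was not called in TR1 (-0.33, adjusted p = 0.090). IKBKE averaged 7.07 in TR1, 7.05 in TR2, 7.12 in TR3 and 7.36 in WT, with changes of -0.29, -0.31 and -0.23 and adjusted p of 0.39, 0.47 and 0.65.

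Upstream of IKK, MAP3K7 (TAK1) works with its activator TAB1 and with TAB2, which binds ubiquitin chains. MAP3K7 averaged 10.66 in TR1, 10.65 in TR2, 10.62 in TR3 and 10.67 in WT, the smallest range between lines of the 28 genes (0.05). TAB1 averaged 7.43 in TR1, 7.67 in TR2, 7.32 in TR3 and 7.60 in WT, and TAB2 averaged 5.54 in TR1, 5.44 in TR2, 5.65 in TR3 and 5.74 in WT. MAP3K14 (NIK), which starts the non-canonical branch, averaged 6.33 in TR1, 6.26 in TR2, 6.30 in TR3 and 6.12 in WT. None of the 4 was called. Another TAB1 probe gave changes of 0.06 in TR1, 0.10 in TR2 and 0.12 in TR3, against -0.17, 0.07 and -0.28 for the brighter probe, so the probes disagreed in sign in TR1 and TR3.

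TRAF adaptors link receptors to these kinases. TRAF6, which serves interleukin 1 and Toll-like receptors, averaged 6.94 ± 0.10 in TR1, 6.91 ± 0.02 in TR2, 6.95 ± 0.10 in TR3 and 7.22 ± 0.11 in WT (SD, n = 2 arrays). The 6 clone arrays lay below both WT arrays, as for TBK1, TAB2 and TRAF1. The changes of TRAF6 were -0.28, -0.31 and -0.27 (adjusted p = 0.26, 0.32 and 0.47, limma). For the mean of the clones the change was -0.29 (SE 0.091, adjusted p = 0.30), which missed the threshold. TRAF1, an NF-kB target that binds TRAF2, averaged 5.27 in TR1, 4.99 in TR2, 5.14 in TR3 and 5.40 in WT, and was detected on 1 of 2 TR2 arrays. TRAF3, which holds NIK in check, averaged 7.08 in TR1, 7.37 in TR2, 7.27 in TR3 and 7.11 in WT. Neither was called.

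TNFAIP3 (A20) removes and adds ubiquitin chains to switch off IKK signalling. Its levels were 7.04 and 7.62 in TR1, 7.52 and 7.93 in TR2, 7.64 and 7.94 in TR3, and 7.56 and 7.69 in WT. TR1 was the lowest line, and its arrays overlapped those of TR2 and WT but not those of TR3. TR2 minus TR1 was 0.40 (SE 0.20, adjusted p = 0.35, limma) and TR3 minus TR1 was 0.46 (adjusted p = 0.33). With the replicate block both were called, at 0.32 (SE 0.091, adjusted p = 0.025) and 0.38 (SE 0.091, adjusted p = 0.014). Without TR1 array A the differences without a block were 0.11 for TR2 and 0.17 for TR3, and without TR1 array B they were 0.69 and 0.75. The array letter block on the raw values called neither (0.40, adjusted p = 0.073, and 0.46, adjusted p = 0.059). Against WT the blocked changes were -0.24 in TR1 (adjusted p = 0.12), 0.09 in TR2 and 0.14 in TR3. TR1 was thus the lowest clone for TNFAIP3 and the highest for NFKBIA, both of them inhibitors of the pathway.

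TNIP1 (ABIN1) is a ubiquitin-binding partner of A20. It had 8.33 and 8.59 in TR1, 8.65 and 8.80 in TR2, 8.28 and 8.27 in TR3, and 8.42 and 8.56 in WT. Both TR2 arrays lay above all others and both TR3 arrays below all others. TR3 minus TR2 was -0.45 (SE 0.12, adjusted p = 0.18, limma), and with the replicate block it was -0.40 (SE 0.086, adjusted p = 0.0096) and was called. With the array letter block on the raw values it was -0.45 (adjusted p = 0.064) and was not called.

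CYLD removes the ubiquitin chains that activate IKK. It averaged 5.12 ± 0.06 in TR1, 4.86 ± 0.20 in TR2, 5.34 ± 0.22 in TR3 and 5.24 ± 0.19 in WT (SD, n = 2 arrays). Its largest change against WT was -0.39 in TR2 (adjusted p = 0.36, limma). The raw intensity of CYLD, 65.9 to 89.7, overlapped that of ICAM1 (51.3 to 73.4), which missed the detection rule. The LUBAC ligase, which builds linear ubiquitin chains on receptor complexes, is made of RNF31 (HOIP), RBCK1 (HOIL-1) and SHARPIN. RNF31 averaged 8.29 in TR1, 8.28 in TR2, 8.18 in TR3 and 8.18 in WT. RBCK1 averaged 9.72 in TR1, 9.80 in TR2, 9.69 in TR3 and 9.77 in WT. SHARPIN averaged 8.47 in TR1, 8.40 in TR2, 8.27 in TR3 and 8.28 in WT. The LUBAC subunits ranged by 0.11 to 0.20 between lines and were not called in any comparison.

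With the replicate block the counts of called members were 2 of 28 in TR1 against WT (NFKBIA higher and TBK1 lower; 9.26% of all genes called), 0 in TR2 (3.99%), 0 in TR3 (2.33%) and 0 for the mean of the clones (3.17%). At an unadjusted p under 0.05 the same limma fit counted 6 members in TR1, 7 in TR2, 4 in TR3 and 4 for the mean (21.4%, 25%, 14.3% and 14.3%). Over all tested genes those shares were 23.1%, 17.3%, 15.8% and 17.7%. Between clones it called 2 members in TR2 against TR1 (11.8% of all genes), 3 in TR3 against TR1 (7.73%) and 1 in TR3 against TR2 (4.14%). Its F test among the clones called NFKB2, NFKBIA, TNFAIP3 and TNIP1, 4 of 28 (14.3%), against 13.3% of all genes, while the array letter block called NFKBIA alone. The members' shares in the comparisons between clones were 7.14%, 10.7% and 3.57% in the same order. They lay below, above and below those of all genes, and a single call among 28 genes makes 3.57%.

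Of the listed targets, CD83 and IER3 were detected. CD83, a surface protein of activated lymphocytes and dendritic cells, averaged 9.23 ± 0.18 in TR1, 9.05 ± 0.02 in TR2, 9.30 ± 0.07 in TR3 and 9.33 ± 0.16 in WT (SD, n = 2 arrays) and was not called. IER3, a stress-induced regulator of cell survival, had 8.36 and 9.22 in TR1, 8.42 and 8.82 in TR2, 8.73 and 9.20 in TR3, and 8.27 and 9.47 in WT. In every line array B was the higher, and the lines overlapped throughout. The line means ranged by 0.34, against a largest gap between duplicates of 1.20. TNFAIP2, CD40 and CXCL8 (interleukin 8) were detected on none of the 8 arrays, with raw intensities of 42.3 to 59.0, 41.2 to 55.9 and 44.4 to 54.7. ICAM1, an adhesion molecule, was detected on 1 TR1 array, with raw intensities of 51.3 to 73.4. These are levels not above the arrays' background and do not show that the genes are silent.

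How far the 28 genes separated the lines was compared with the gap between duplicates. The range of the line means exceeded the largest duplicate gap for 14 of 28 genes (50%) and for 4880 of 10681 tested genes (45.7%). The median range was 0.30 for the 28 genes and 0.24 for all genes. No member had a range above 1, which 239 of all genes (2.24%) had. The widest was NFKBIA at 0.67.

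**Figure D3:**
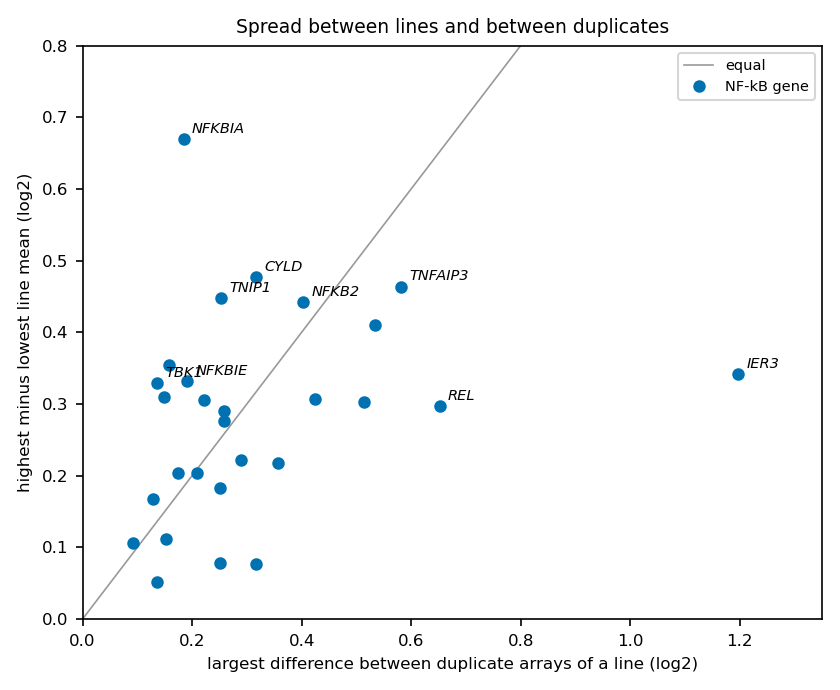
Range of the line means (y axis, log2, highest minus lowest of TR1, TR2, TR3 and WT) against the largest difference between duplicate arrays of a line (x axis, log2) for each of the 28 NF-kB genes; the grey line marks equality. NFKBIA lies far above the line (0.67 against 0.18) and IER3 far below it (0.34 against 1.20).

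A count of members whose 2 arrays lay wholly above or below those of the other line was read against the same count over all genes. In TR1 against WT it held for 11 of 28 genes (39.3%, against 45% of all genes), with 5 higher and 6 lower. In TR2 against WT it held for 14 (50%, against 39.8%), with 6 higher and 8 lower. In TR3 against WT it held for 9 (32.1%, against 39.2%), with 1 higher and 8 lower.

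The duplicates of each line carry replicate numbers 1 and 2, and the labels say no more of what a number stands for. Replicate 2 was compared with replicate 1 across the 4 lines on the authors' processed values, with the line as a factor. IER3 and TNFAIP3 were called, both higher in replicate 2. These are 2 of 28 genes called higher and 0 called lower, against 3.29% of all genes called higher and 1.7% called lower (4.99% in either direction). At an unadjusted p under 0.05 the count was 6 of 28 (21.4%), against 18.4% of all genes.

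In processed log2 values IER3 was 9.32 in TR1, 8.95 in TR2, 9.29 in TR3 and 9.55 in WT for replicate 2, against 8.53, 8.59, 8.86 and 8.45 in the same order for replicate 1. Every replicate 2 value lay above every replicate 1 value. Replicate 2 minus replicate 1 was 0.67 over the lines (SE 0.089, 95% interval 0.48 to 0.86, 1.59-fold, adjusted p = 0.00015, limma). By size of change IER3 ranked 24 among the 5040 of 10681 genes higher in replicate 2. Within lines the difference was 0.79 in TR1, 0.36 in TR2, 0.43 in TR3 and 1.10 in WT.

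TNFAIP3 was 7.89 in TR1, 8.15 in TR2, 8.16 in TR3 and 7.95 in WT for replicate 2, against 7.43, 7.81, 7.91 and 7.84 in the same order for replicate 1. Replicate 2 was the higher in every line, although values of replicate 2 in some lines lay below those of replicate 1 in others. The difference was 0.29 (SE 0.064, 95% interval 0.16 to 0.43, 1.22-fold, adjusted p = 0.011, limma), higher in 4 of 4 lines, by 0.46 in TR1, 0.34 in TR2, 0.26 in TR3 and 0.11 in WT. The TNFAIP3 call was lost without TR1 (0.23, adjusted p = 0.076) or without TR2 (0.28, adjusted p = 0.076), while IER3 was called without any 1 of the lines.

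Of the 28 genes, 7 were higher in replicate 2 in all 4 lines (25%, against 12.4% of all genes). They were RELB, REL, TRAF1, TNFAIP3, RNF31, CD83 and IER3. IKBKB, 1 of the 28, was lower in all 4 lines, as were 1358 of 10681 tested genes. Apart from IER3 and TNFAIP3 these were not called. REL differed by 0.19 (adjusted p = 0.077, limma) and CD83 by 0.14 (adjusted p = 0.21). For NFKBIA the lines went in both directions, with differences of -0.05 in TR1, -0.13 in TR2, 0.0035 in TR3 and 0.18 in WT.

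**Figure D4:**
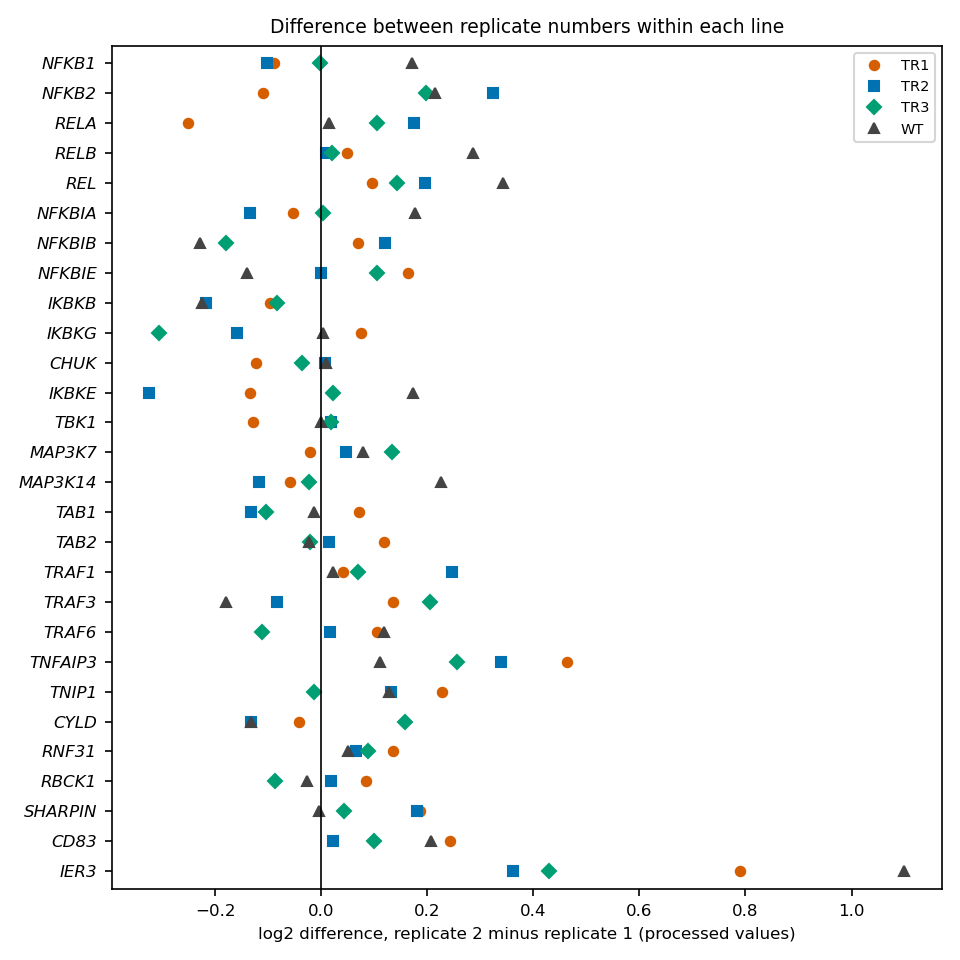
Replicate 2 minus replicate 1 (x axis, log2 of the authors' processed values) within TR1, TR2, TR3 and WT for each of the 28 NF-kB genes, with genes down the page in order of role. The IER3 points lie between 0.36 and 1.10 and the TNFAIP3 points between 0.11 and 0.46, all to the right of 0, while the points of most other genes lie on both sides of it.

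Further genes of the pathway were taken from a list of 30 other components, of which 23 were tested, and a list of 30 other NF-kB targets, of which 17 were tested. None of the 23 components was called against WT, with 5 at an unadjusted p under 0.05 in TR1, 1 in TR2 and 0 in TR3 (limma). Over all tested genes the shares at that p were 16.2%, 11.5% and 9.81% in the same order. With the replicate block IRAK1, a kinase of interleukin 1 and Toll-like receptor signalling, was called lower in TR2 at -0.36 (SE 0.082, adjusted p = 0.015). That is 1 of 23 components, where that fit called 3.99% of all genes. Without a block, 2 of the 17 other targets were called higher in TR1 and 1 lower in TR2, and none in TR3. Over all tested genes 2.36%, 0.646% and 0.318% were called in the same order. The target list was chosen with earlier results of these data known, so its counts beside these shares are a description and no test. At an unadjusted p under 0.05 there were 7 targets in TR1, 5 in TR2 and 1 in TR3, against the shares of all genes given above.

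LTB, the cytokine lymphotoxin beta, had log2 levels of 6.61 and 7.04 in TR1, 5.37 and 5.23 in TR2, 5.49 and 5.24 in TR3, and 5.93 and 5.65 in WT, and changed by 1.03 in TR1 (SE 0.16, adjusted p = 0.011, limma). CFLAR, the inhibitor of death receptor caspase activation, had 6.93 and 7.04 in TR1, 5.32 and 5.11 in TR2, 5.92 and 5.92 in TR3, and 6.08 and 5.92 in WT. It rose by 0.98 in TR1 (SE 0.12, adjusted p = 0.0022) and fell by 0.79 in TR2 (SE 0.12, adjusted p = 0.017). On the processed values the changes were smaller: 0.68 for LTB in TR1, and 0.68 in TR1 and -0.43 in TR2 for CFLAR. With the replicate block, which leaves the size of these changes as it is, all of them were called. For both genes TR1 was the highest line on both arrays, as it was for NFKBIA. The 17 targets as a set went both ways in TR1 against WT: 8 lay above 0 and 9 below, with a median change of -0.03. The list was chosen with earlier results of these data known. The replicate block also called STAT5A and CCR7 lower, in TR1 at -0.39 and -0.35 and in TR2 at -0.49 and -0.41 (adjusted p = 0.024, 0.032, 0.010 and 0.022). It called 4 of the 17 targets in TR1 and 3 in TR2, against 9.26% and 3.99% of all genes. STAT5A was also called lower for the mean of the clones, at -0.35 (adjusted p = 0.031), 1 of 17 targets against 3.17% of all genes. None of the 17 targets or 23 components was called between replicate numbers, where 4.99% of all genes were called. At an unadjusted p under 0.05 there were 1 and 4, against 18.4% of all genes.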

How the data were processed

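RNA of 8 samples, 2 biological duplicates each of TR1, TR2, TR3 and WT, was amplified and hybridised to Illumina HumanRef-8 arrays, per the labels. The authors deposited raw intensity per probe and array with a detection p-value, per the file headers, and a table of processed intensity of the same arrays, on a linear scale with a common distribution, whose centring is not stated. The submitters' processing notes name limma. No source used here gives the scanner software or any background subtraction. Raw intensities quantile normalised with no background correction gave the same changes as the processed values for the members followed. NFKBIA in TR1 against WT was 0.49 with either. Raw columns are lettered A and B and processed columns numbered by replicate (1 and 2). The labels match no letter to a number, and 0 columns were left without a line. In the values of the members, array A went with replicate 1 and array B with replicate 2 in every line. Under either coding 1324 of 10681 genes were higher in the second duplicate in all 4 lines, and 1358 were lower.

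Background was removed from the raw intensities in R 4.3.3 with limma 3.58.1 (normexp from the detection p-values, offset 16), taken to log2 and quantile normalised. The detection filter (p under 0.05 for both duplicates of some line) left 13130 of 22184 probes. Genes were named through the platform annotation, updated to current symbols (19715 probes with 1 symbol, 2469 with none), and the kept probe of highest mean stands for its gene. All 8 arrays entered 1 group-means model (lmFit, eBayes; 4 residual and 5.66 prior degrees of freedom), with Benjamini-Hochberg adjustment over all kept probes. The code was tested on simulated data. The number of arrays limits the precision.

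Replicate numbers were compared, and entered as a block, on log2 of the processed values. Differences of replicate 2 minus replicate 1 correlated between lines in all 6 pairs of lines (r = 0.280 to 0.432 over 13130 probes), so the numbers were taken to pair the samples. Alternatives were no background correction, cyclic loess, no filter on dim probes, the processed values, array weights, only the arrays compared, and leaving out each array or line. Blocking on the array letter, and array B minus array A in place of the replicate difference, were added after seeing the data.

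Every detected member is named with its level in all lines. Values per array are given for members called in any comparison under either fit and for the Rel subunits, NFKBIA and TNFAIP3. Of the other pathway lists, the genes called against WT are named. The members and lists were chosen with earlier results of these data known.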

Additional observations from a re-analysis of the deposited data

Results flagged for a closer look

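NFKBIA stood out because its change differed between the clones, as tested by the contrast of the clones themselves (limma). TR2 minus TR1 was -0.67 (SE 0.11, adjusted p = 0.0073), with 9.84 and 9.70 in TR2 against 10.47 and 10.41 in TR1. TR3 minus TR1 was -0.57 (SE 0.11, adjusted p = 0.036), with 9.86 and 9.87 in TR3. Since each clone was compared with the same WT arrays, these contrasts are also the differences between the clones' changes against WT.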

How the results depend on the processing

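The number of NF-kB genes called in TR1 against WT was 1, and became 0 with cyclic loess (NFKBIA adjusted p = 0.051), with all dim probes kept in (0.068), with weighted arrays (0.076) and with only the arrays compared (0.13), and 0 whichever array was left out. With the replicate block on the authors' processed values it was 2. In TR2 against TR1 the count was 1, 2 with the replicate block and 0 to 1 over the arrays left out. In TR3 against TR1 it was 1, 0 with no filter on dim probes, 3 with the replicate block and 0 to 1 over the arrays left out. In TR3 against TR2 the replicate block gave 1 in place of 0. Among the clones the count was 1, 4 with the replicate block and 0 to 1 over the arrays left out. Between replicate numbers the count was 2, became 1 without line TR1 and 1 without line TR2 (1 to 2 over the samples left out), and was 1 for array B minus array A on the raw values, where IER3 was called and TNFAIP3 was not (0.36, adjusted p = 0.067). For replicate numbers, leaving out 1 sample of a line is the same as leaving out that line. The array letter block on the raw values, chosen after seeing the data, made none of the calls that the replicate block added (TBK1, NFKB2, TNFAIP3 and TNIP1, adjusted p = 0.059 to 0.13) and gave 1 among the clones. Both blocks pair the same arrays, on differently processed values. The processed values without a block and no background correction left these counts between lines within 1.5 times. Those settings gave the same log2 changes as each other, so they are not separate checks. A block leaves the changes between lines as they are, since every line holds both duplicates, and alters their SE. NFKBIA in TR1 against WT was 0.49 on the processed values with and without the replicate block. The cause of these shifts was not tested. With an array left out, fewer arrays entered the fit, and both a change and its SE could move. None of the log2 changes followed across these alternatives for NFKBIA, NFKB2, TBK1, TNFAIP3, TNIP1 and IER3 turned its sign. The 2 arrays per line limit the precision.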
